A study of Mus musculus with 9 samples.

Results

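Transcripts of 9 cell adhesion receptors were followed in cultured mouse embryonic fibroblasts (MEFs, connective tissue cells grown from mouse embryos) given an inhibitor of cyclin-dependent kinases. The receptors were Icam1, Vcam1, Alcam, Mcam, Ncam1, F11r, Jam3 and Thy1, which carry immunoglobulin domains, and Cd44, a receptor for hyaluronan. They were taken by name from a table of 24062 gene symbols. Icam1 was chosen by its measured counts, which differed between the p21 and the p16 libraries, so its values are given as a description with no test. The cells came from C57BL/6 mice and were infected with lentivirus: an empty vector in the controls, p21 (Cdkn1a) in the p21 group or p16 (Cdkn2a) in the p16 group. RNA was isolated on day 4, the labels call the cells non-senescent, and each of the 3 groups held 3 libraries. The labels do not say whether the 3 libraries of a group came from separate embryos or cultures. The p-values measure the spread between these libraries, which may be technical in part, although replicate 3 differed from the others in Xist (below). The promoter that drove the delivered genes is not given in the sources used here.

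The libraries held 44455730 to 63152239 counted reads. Cdkn1a stood at 1429 to 1773 CPM (read counts scaled to a common library total) with p21 against 350 to 375 CPM in the controls, and Cdkn2a at 1576 to 1927 CPM with p16 against 34.7 to 42.2 CPM, as the labels say. The replicate 3 library of each group carried Xist, the transcript of the inactive X chromosome, at 181 to 251 CPM. The other libraries held at most 0.340 CPM of it, except p21 replicate 1 with 6.96 CPM. Col1a1 and Fn1, fibroblast genes that encode collagen I and fibronectin, were abundant in every library (Col1a1 at 12411 CPM or more, Fn1 at 9886 CPM or more). Dcn, also on the fibroblast list, stayed at or under 4.12 CPM and Lum had group means of 0.542 to 0.747 CPM. Of the 8 fibroblast markers, 3 rose with p21 (Col1a1, Fn1 and Vim) and 2 fell (Col3a1 and Pdgfra). Of all genes, 19.8% were called higher with p21 and 20.1% lower. Pdgfra fell from 33.5 ± 2.70 to 16.8 ± 5.04 CPM with p21 (edgeR adjusted p = 9.16e-04) and was at 24.4 ± 5.56 CPM with p16 (0.119). Of 6 epithelial markers, Epcam, Cdh1, Krt5 and Krt14 were too low to be tested, and Krt8 did not pass with p21 (edgeR adjusted p = 0.602). Krt18 rose with p21, from 12.1 ± 0.734 to 13.98 ± 0.0713 CPM (edgeR adjusted p = 0.0200), and was at 11.97 ± 0.304 CPM with p16.

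Adhesion receptors hold cells to each other, to the matrix and to passing leukocytes. ICAM1 and VCAM1 are ligands on the cell surface that leukocytes grip through their integrins, LFA-1 and Mac-1 for ICAM1 and VLA-4 for VCAM1, and inflammatory cytokines raise both through NF-kB. JAM-A (F11r) and JAM-C (Jam3) sit at cell contacts, ALCAM, MCAM and NCAM1 bind copies of themselves or other partners on neighbouring cells, and THY1 is a small glycoprotein of the fibroblast surface anchored by a lipid. CD44 binds hyaluronan, a long sugar chain of the matrix, and links it through its tail to the actin cortex.

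Icam1 and F11r had the largest differences from the empty vector among the 9 receptors, and their upstream sequences are shown for that reason. Both come from the RefSeq promoter table (GRCm38.p6), which held 5 of the 9 receptors (Icam1, F11r, Alcam, Mcam and Cd44), and both are given on the plus strand, 5′ to 3′. Each ends before the annotated start of the transcript. In Icam1 (chr9:21015690-21015939) capitals mark GGAAATTCC, a form of the NF-kB element, and TTCNNNGAA, the pattern of a STAT element. In F11r (chr1:171437311-171437534) they mark TGANTCA, the AP-1 element, and CCAAT, the box bound by NF-Y, on either strand.
Icam1: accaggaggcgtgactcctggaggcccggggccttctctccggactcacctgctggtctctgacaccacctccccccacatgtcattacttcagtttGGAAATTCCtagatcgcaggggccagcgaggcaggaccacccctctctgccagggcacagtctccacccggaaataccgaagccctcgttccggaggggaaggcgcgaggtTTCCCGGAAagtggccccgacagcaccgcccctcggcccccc
F11r: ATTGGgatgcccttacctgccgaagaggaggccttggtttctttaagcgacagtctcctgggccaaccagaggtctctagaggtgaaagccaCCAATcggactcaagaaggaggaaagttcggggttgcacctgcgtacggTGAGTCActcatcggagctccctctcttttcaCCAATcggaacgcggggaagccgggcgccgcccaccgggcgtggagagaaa
Motifs were searched on both strands over 250 bases in each of 32851 promoter windows, placed by the start in the RefSeq table. That start can differ from the one in the GENCODE annotation used for the coordinates below. By GENCODE the Alcam window lies inside the gene, and the Mcam and F11r windows run past the start. All GGGCGG matches of Mcam lie past it. GGAAATTCC was in 0.286% of them, TTCNNNGAA in 7.02%, TGANTCA in 6.75% and CCAAT in 33.8%. Of the 5 receptors in the table, Icam1 was the one with GGAAATTCC and the one with TTCNNNGAA, each 1 time, and F11r the one with TGANTCA. The CCAAT box was found 3 times in F11r and 1 time in Alcam, and GGGCGG, the SP1 box of 32.7% of windows, 5 times in Mcam, 2 times in Alcam and 1 time each in Icam1 and F11r. The longer NF-kB consensus was found in 3.9% of windows and in none of the 5. These matches describe letters and are not evidence of binding.

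Of the 9 receptors, 5 lie on chromosome 9, which holds 5.67% of the tested genes with a position. Coordinates are from GENCODE M21 on GRCm38, the build called mm10. Icam1 spans 21015985 to 21028817 there, Jam3 27097384 to 27155421, Thy1 44043384 to 44048579, Mcam 44134469 to 44142727 and Ncam1 49502136 to 49798925. Between the end of Thy1 and the start of Mcam lie 85889 bases. The other receptors are F11r on chromosome 1 (171437535 to 171464603), Cd44 on chromosome 2 (102811141 to 102901665), Vcam1 on chromosome 3 (116109949 to 116129688) and Alcam on chromosome 16 (52248996 to 52454074). The library kit keeps no strand, and 36.2% of the exon bases of Jam3, 11.7% of those of Icam1 and 4.81% of those of Ncam1 overlap an opposite-strand gene, whose reads cannot be separated.

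Divided by the length of the merged exons, the transcripts covered a wide range of levels. In the controls Thy1 was the highest, at 175 ± 6.22 CPM per kilobase (SD, n = 3), followed by Cd44 at 130 ± 4.96 and Mcam at 55.4 ± 2.38 CPM per kilobase. Ncam1, Jam3, Alcam and Vcam1 followed at 17.4, 13.3, 11.1 and 10.1 CPM per kilobase, then F11r at 4.98 ± 0.188. Icam1 was the lowest at 1.16 ± 0.226 CPM per kilobase. Neighbours in this order did not overlap between the control libraries, apart from Alcam and Vcam1. The order was the same in the p21 and the p16 group. Set against the longest transcript with a consensus coding sequence, a length scale added after seeing the data, Vcam1 moved up to the place beside Ncam1 (25.8 ± 1.58 and 24.9 ± 1.81 CPM per kilobase in the controls, overlapping), while Thy1, Cd44 and Mcam stayed the highest and F11r and Icam1 the lowest.

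**Figure D1:**
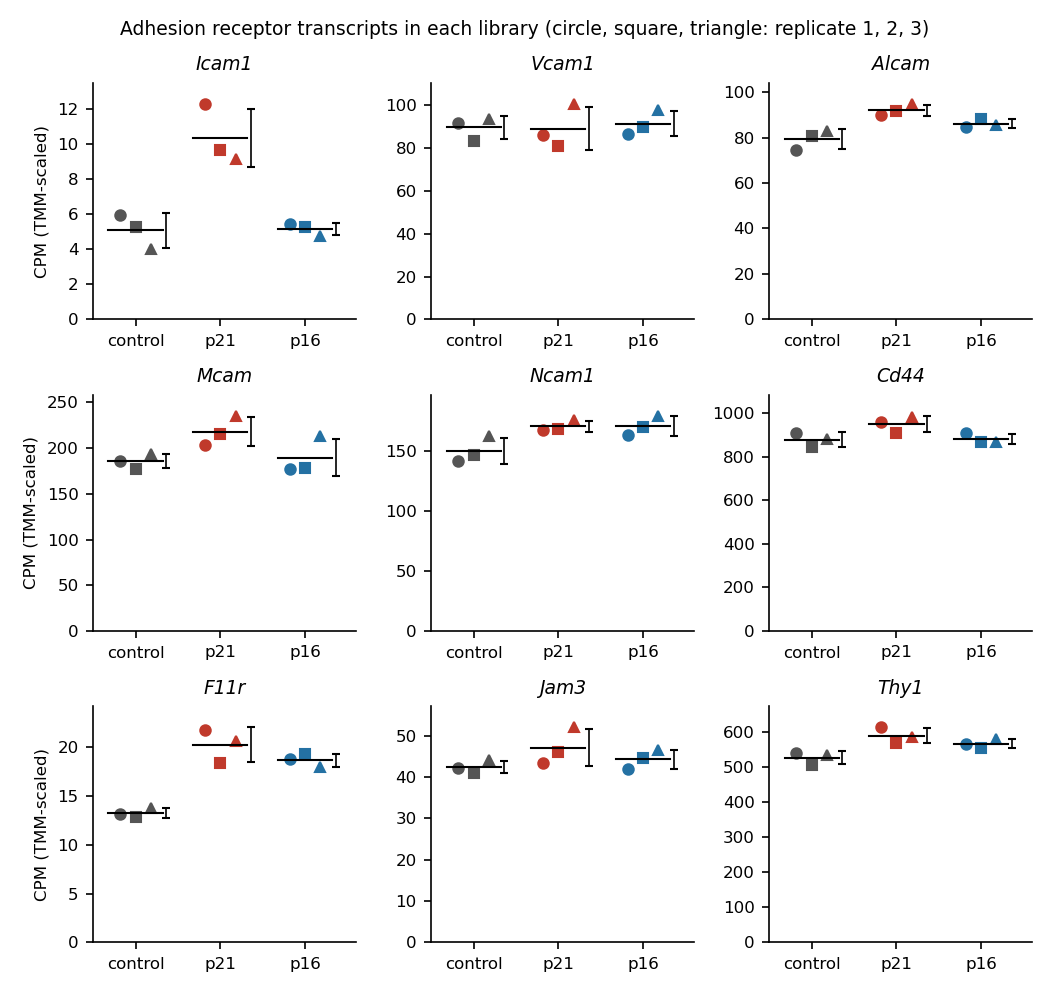
Level of each receptor transcript in CPM on a linear axis from 0, by group, with 1 point per library (circle, square and triangle for replicates 1, 2 and 3), a line at the mean of 3 libraries and a bar of ± 1 SD. Icam1 is apart in the p21 libraries (9.17 to 12.3 CPM), F11r is apart from the controls in both groups, and the Vcam1 points of the 3 groups overlap.

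Icam1 was higher with p21 and near the controls with p16. It stood at 5.96, 5.27 and 4.02 CPM in control replicates 1, 2 and 3 (330, 307 and 188 reads). With p21 it stood at 12.3, 9.69 and 9.17 CPM (728, 427 and 483 reads). With p16 it stood at 5.44, 5.26 and 4.75 CPM (288, 331 and 233 reads). Every p21 library was above every other library, and the p16 libraries lay inside the range of the controls. The mean was 10.4 ± 1.65 CPM (SD, n = 3) with p21, 5.08 ± 0.984 CPM in the controls and 5.15 ± 0.361 CPM with p16, so p21 was 2.04 times the controls and 2.01 times p16. On the log2 scale the differences were 1.03 ± 0.15 (SE) for p21 against the empty vector, 0.02 ± 0.15 for p16 against the empty vector and 1.01 ± 0.14 for p21 against p16. Both p21 differences rest on the libraries for which Icam1 was chosen.

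Within a replicate number the Icam1 ratio of p21 to control was 2.06, 1.84 and 2.28, that of p21 to p16 was 2.25, 1.84 and 1.93, and that of p16 to control was 0.914, 0.9998 and 1.18. Leaving out any 1 library kept the p21 to control difference between 0.89 and 1.16 on the log2 scale. In bulk RNA a larger number of cells with Icam1 and more Icam1 RNA per cell cannot be told apart. Its neighbours on the chromosome are Icam4 and Icam5. Icam5, with 3255 bases between it and the end of Icam1, had 0.715 ± 0.132 CPM in the controls and 0.725 ± 0.0798 CPM with p21 (0.01 ± 0.31, edgeR adjusted p = 0.980). Icam4 and Icam2 were too low to be tested, at no more than 0.247 CPM in any library.

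Vcam1, the other cytokine-induced leukocyte ligand, passed the test in none of the 3 comparisons. It stood at 91.8, 83.4 and 93.7 CPM in the controls, at 86.0, 81.1 and 100.4 CPM with p21, and at 86.8, 89.7 and 98.0 CPM with p16. The 3 groups overlapped throughout. The log2 fold change was -0.0076 ± 0.075 with p21 (edgeR adjusted p = 0.949), 0.03 ± 0.075 with p16 (0.856) and -0.04 ± 0.075 between p21 and p16 (0.807).

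**Figure D2:**
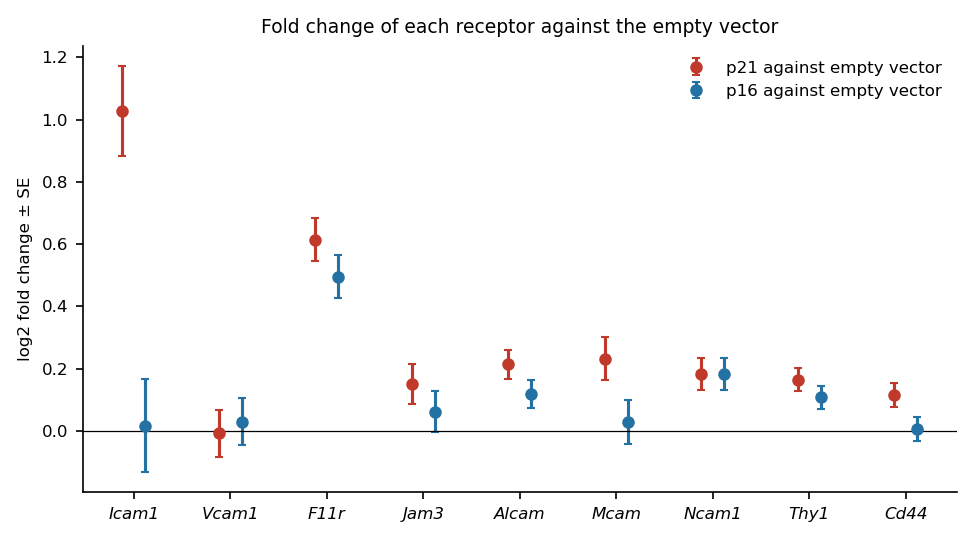
Log2 fold change of each receptor against the empty vector with its standard error from the edgeR fit, for p21 and for p16. Icam1 is near 0 with p16 and at 1.03 with p21, F11r lies above 0 in both (0.61 and 0.49), and Vcam1 is near 0 in both. The comparisons share the control libraries.

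Among the junctional adhesion molecules, F11r rose with both inhibitors and Jam3 passed the test with neither. F11r stood at 13.1, 12.8 and 13.8 CPM in the controls. With p21 it stood at 21.8, 18.4 and 20.7 CPM, and with p16 at 18.8, 19.3 and 17.95 CPM. All 6 libraries with an inhibitor were above all controls, and the p21 and p16 libraries overlapped. F11r rose 1.53-fold with p21 (log2 fold change 0.61 ± 0.069, edgeR adjusted p = 2.32e-05) and 1.41-fold with p16 (0.49 ± 0.069, edgeR adjusted p = 0.00105). The difference of p21 from p16 was 0.12 ± 0.068 and did not pass (edgeR adjusted p = 0.283). Jam3 had 42.2, 41.1 and 44.04 CPM in the controls, 43.3, 46.0 and 52.0 CPM with p21 and 41.9, 44.5 and 46.5 CPM with p16. Its log2 fold change with p21 was 0.15 ± 0.065 (edgeR adjusted p = 0.0836, but 0.0109 with the replicate number as a block and 0.0270 without p21 replicate 1), and with p16 0.06 ± 0.065 (0.604).

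Alcam, Mcam, Ncam1 and Thy1 rose with p21 by smaller amounts. Alcam, which binds CD6 on T cells, went from 74.7, 80.5 and 83.0 CPM in the controls to 89.7, 91.9 and 94.5 CPM with p21, with no overlap (0.21 ± 0.045, edgeR adjusted p = 0.00256). Its p16 libraries at 84.8, 88.3 and 85.3 CPM also lay above the controls, but the difference of 0.12 ± 0.045 did not pass (edgeR adjusted p = 0.118, and 0.0280 with the replicate block). Thy1 went from 539, 504 and 533 CPM to 612, 569 and 586 CPM with p21 (0.16 ± 0.037, edgeR adjusted p = 0.00338). Its p16 libraries at 564, 554 and 580 CPM were each above the controls, and again the test was not passed (0.11 ± 0.037, edgeR adjusted p = 0.0790, and 0.00899 with the replicate block).

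Ncam1, the neural cell adhesion molecule, rose with both inhibitors. It stood at 142, 147 and 163 CPM in the controls, at 167, 168 and 176 CPM with p21 and at 163.1, 170.1 and 179.3 CPM with p16. The highest control, replicate 3, reached 162.8 CPM and nearly met the lowest p16 library. The log2 fold changes were 0.18 ± 0.051 with p21 (edgeR adjusted p = 0.0136) and 0.18 ± 0.051 with p16 (edgeR adjusted p = 0.0381). Between p21 and p16 the difference was -0.0019 ± 0.051 (edgeR adjusted p = 0.989). The p21 call was lost without control replicate 1 (edgeR adjusted p = 0.0630) or 2 (0.0561). Leaving out control replicate 1 or 2, p21 replicate 1, or p16 replicate 2 or 3 ended the p16 call (edgeR adjusted p = 0.0531 to 0.151). The sum of 6 neural and glial markers was 399 to 483 CPM in the controls, 484 to 588 CPM in the p21 libraries and 436 to 491 CPM in the p16 libraries, and its part in the Ncam1 values was not tested.

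Mcam, also called CD146 and known from pericytes and endothelium, stood at 186, 177 and 193 CPM in the controls and at 204, 215 and 235 CPM with p21. These did not overlap (0.23 ± 0.069, edgeR adjusted p = 0.0186), and leaving out control replicate 2 (edgeR adjusted p = 0.0770) or p21 replicate 3 (0.0716) ended the call. With p16 it stood at 177, 178 and 213 CPM, so 1 library, replicate 3, was inside the p21 range (0.03 ± 0.069 against the controls, edgeR adjusted p = 0.848). The p21 to p16 difference of 0.20 ± 0.069 did not pass (edgeR adjusted p = 0.0756), but passed without p16 replicate 3 (0.00661) and with the replicate block (0.000265). The summed level of 6 pericyte markers was 410 to 477 CPM in the controls, 389 to 413 CPM in the p21 libraries and 409 to 473 CPM in the p16 libraries. The sum of 7 endothelial markers was 6.71 to 8.30 CPM, 10.9 to 13.2 CPM and 6.86 to 9.88 CPM in the same order. Cspg4 and Pdgfrb were the largest parts of each pericyte sum, and the pericyte markers went both ways. Of these 6, Rgs5 alone passed with p21, and it rose (0.24 ± 0.085, edgeR adjusted p = 0.0397). Cspg4 (-0.19) and Pdgfrb (-0.11) were lower with p21, and Kcnj8 (0.28), Abcc9 (0.37) and Notch3 (0.02) higher, and none of these passed. Of the 5 endothelial markers tested, Esam alone passed with p21 (0.90 ± 0.23, edgeR adjusted p = 0.00703), where 19.8% of all genes were called higher. Emcn (0.92 ± 0.37, edgeR adjusted p = 0.0665), Cdh5 (0.40), Tek (0.38) and Kdr (0.24) were also above 0 with p21 and did not pass. Pecam1 and Tie1 were too low to be tested. Since Icam1, F11r, Alcam and Mcam are also endothelial genes, the part of such cells in their p21 values was not tested.

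Cd44 rose slightly with p21. It stood at 911, 844 and 880 CPM in the controls, at 961, 910 and 981 CPM with p21 and at 907, 867 and 870 CPM with p16. The p21 and control ranges met at their ends, since p21 replicate 2 lay just under control replicate 1. The rise with p21 was 1.08-fold (0.11 ± 0.038, edgeR adjusted p = 0.0317), and leaving out control replicate 2 or 3, or p21 replicate 1 or 3, ended the call (edgeR adjusted p = 0.0744 to 0.132). With p16 the difference was 0.0044 ± 0.038 (edgeR adjusted p = 0.962). That of p21 from p16 was 0.11 ± 0.038 (edgeR adjusted p = 0.0809, and 0.00654 with the replicate block).

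Counted together, 6 of the 8 receptors other than Icam1 rose with p21 and none fell, where 39.9% of the 14223 genes tested were called, 19.8% higher and 20.1% lower. Their median log2 fold change was 0.17, against 0.0011 over all genes tested. With p16, 2 of the 8 rose (Ncam1 and F11r) and none fell, where 11.4% of genes were called and 5.8% were called higher and 5.56% lower, and the median was 0.085 against 0.0017. Without control replicate 2 the p21 count was 3 of the 8 (Alcam, F11r and Thy1). The p16 count was 1, F11r, without control replicate 1 or 2, p21 replicate 1, or p16 replicate 2 or 3, and 4 with the replicate block, Alcam and Thy1 in addition. The 1616 genes called with p16 fell to 759 without p16 replicate 2, 826 without control replicate 1, 921 without control replicate 2, 984 without p16 replicate 3 and 1070 without p16 replicate 1. The 1858 genes called between p21 and p16 fell to 1078 without p21 replicate 1, 1074 without p16 replicate 1 and 1151 without p16 replicate 2. Between p21 and p16, where 13.1% of genes were called (6.15% higher and 6.91% lower with p21), edgeR called 0 of the 8. DESeq2 and the replicate block each called 2 of the 8, Mcam and Cd44. Of the 14223 genes tested, DESeq2 called 2186 and the replicate block 3214 in this comparison. Limma-voom called 0 of the 8. All p21 libraries lay above all controls for 5 of the 8, against 24.2% of all genes tested, and below them for none, against 25% (49.1% either way). All p16 libraries lay above all controls for 4 of the 8, against 16.1%, and below them for none, against 16.6% (32.7% either way). All p21 libraries lay above all p16 libraries for 2 of the 8, Alcam and Cd44, against 14.9%, and below them for none, against 16.3% (31.2% either way). The receptors were chosen with results of these data known, so these counts are a description.

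The split between higher and lower calls depended on the scaling of the libraries. In the p21 comparison 2816 genes were called higher and 2865 lower, and with library totals alone 2173 and 3734. The median of all genes then moved from 0.0011 to -0.048 on the log2 scale, and Alcam, F11r and Thy1 were the 3 receptors still called with p21. For p16 the split went from 825 higher and 791 lower to 617 and 1235, and F11r alone was called. For p21 against p16 it went from 875 and 983 to 735 and 1254. Icam1 with p21 was at 0.98 on that scale.

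Other immunoglobulin adhesion receptors went both ways with p21. Of 32 listed, 27 were tested, and 8 rose and 3 fell with p21. In total this share was near the 39.9% of all genes called, of which 19.8% were higher and 20.1% lower, so the calls of the list leaned higher. With p16, 6 rose and none fell, where 11.4% of all genes were called, 5.8% higher and 5.56% lower. Their median was 0.06 with p21 and 0.09 with p16. Nrcam, a neuronal relative of L1, rose from 3.91 ± 0.380 to 9.49 ± 1.65 CPM with p21 (1.28 ± 0.15, edgeR adjusted p = 3.14e-05) and to 6.65 ± 1.04 CPM with p16 (0.77 ± 0.15, 0.00728). Pvr, the poliovirus receptor family gene that also binds nectins, rose from 111 ± 4.22 to 142 ± 5.41 CPM with p21 (0.36 ± 0.040, edgeR adjusted p = 1.78e-05). With p16 Pvr was at 122 ± 0.797 CPM (0.14 ± 0.040, edgeR adjusted p = 0.0390). Bcam, a laminin receptor, rose with p21 and with p16 (0.60 ± 0.081 and 0.42 ± 0.081, edgeR adjusted p = 1.02e-04 and 0.00640). The p21 to p16 difference passed for Nrcam (0.51 ± 0.14, edgeR adjusted p = 0.0335) and Pvr (0.22 ± 0.040, 0.00296) and did not for Bcam (0.175). Leaving out p21 replicate 1 or 2, or p16 replicate 2 or 3, ended that of Nrcam (edgeR adjusted p = 0.0827 to 0.146). The p16 call of Pvr was lost without any 1 of the control or p16 libraries (edgeR adjusted p = 0.0584 to 0.167). Cxadr, Clmp and Mpzl1 were the 3 that fell with p21.

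**Figure D3:**
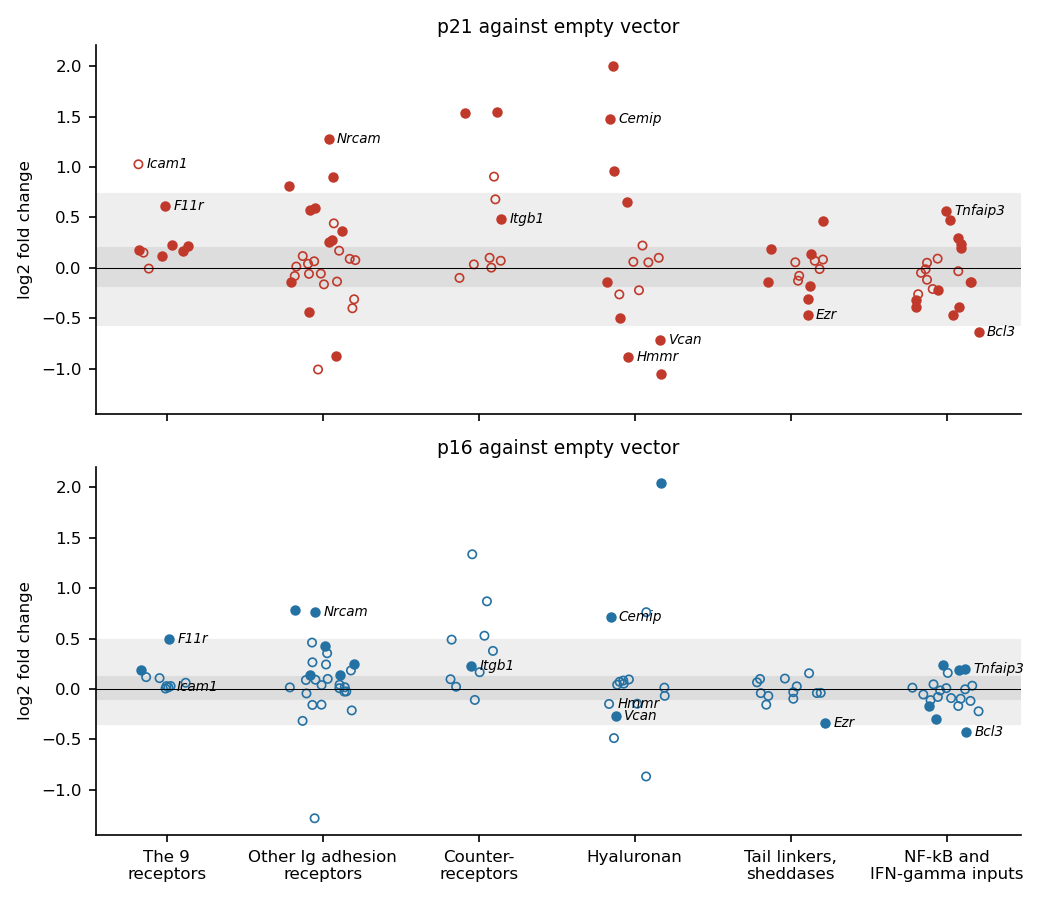
Log2 fold change of every tested gene of the receptor group and of 5 related lists, against the empty vector, for p21 (upper) and p16 (lower). Filled points passed the edgeR test, open points did not, and Icam1 is open because it was not tested. The grey bands hold the middle 50% and 90% of all genes tested (-0.56 to 0.73 for the wider band with p21). F11r lies inside the wider band with p21 and Icam1 above it.

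The genes for the partners that these receptors bind ranged from abundant to barely present. Of 11 counter-receptor genes, 10 were tested, and 3 rose with p21 and 1 with p16, and none fell. Of all genes, 39.9% were called with p21 and 11.4% with p16, 19.8% and 5.8% of them higher than the controls. Itgb1, the integrin chain shared by the VCAM1 receptor VLA-4 and by matrix receptors, rose from 2270 ± 34.9 to 3176 ± 149.8 CPM with p21 (0.48 ± 0.038, edgeR adjusted p = 1.20e-06). Its p16 mean was 2657 ± 62.6 CPM (0.23 ± 0.038, 0.00302). Itga4, its partner in VLA-4, was at 7.64 ± 1.70, 7.15 ± 0.537 and 7.10 ± 0.357 CPM in controls, p21 and p16. Itgal, the LFA-1 chain that binds ICAM1, and Cd6, the T cell ligand of ALCAM, passed with p21 at very low levels. Itgal was at 0.182 and 0.518 CPM in the controls and with p21 (1.54 ± 0.42, edgeR adjusted p = 0.0109), and Cd6 at 0.0675 and 0.204 CPM (1.55 ± 0.48, edgeR adjusted p = 0.0210). The call of Itgal was lost without control replicate 2 (edgeR adjusted p = 0.0566), and that of Cd6 by DESeq2 (0.0715), with no filter (0.0811), with replicates 1 and 2 alone (0.122) and when control replicate 2 or 3, or p21 replicate 1, was left out (edgeR adjusted p = 0.0652 to 0.0854).

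The level of leukocyte markers is given here because leukocytes carry ICAM1 and its receptors. Of 8 macrophage and leukocyte markers, 4 rose with p21 (Ptprc, Csf1r, Tyrobp and Lyz2) and none fell, with a median of 0.78, where 19.8% of all genes were called higher. Cd68, Adgre1, Cd14 and Itgam did not pass, with log2 fold changes of 0.15, 0.77, -0.02 and 0.68. With p16 edgeR called 0 of 8, where 11.4% of all genes were called and 5.8% were called higher, and the median was 0.48. Between p21 and p16 edgeR also called 0 of 8, where 13.1% of all genes were called. Summed over the list, the controls held 23.2 to 33.3 CPM, the p21 libraries 36.7 to 48.3 CPM and the p16 libraries 28.3 to 48.3 CPM. Ptprc, the pan-leukocyte marker CD45, was at 0.343 ± 0.0989 CPM in the controls and 0.678 ± 0.210 CPM with p21. No marker of the list was at 0 in a whole group. Every p21 sum lay above every control sum, and Lyz2 was the largest part of each sum. In control replicates 1, 2 and 3 the sums were 23.2, 24.9 and 33.3 CPM with Icam1 at 5.96, 5.27 and 4.02 CPM. With p21 they were 44.5, 36.7 and 48.3 CPM with Icam1 at 12.3, 9.69 and 9.17 CPM. With p16 they were 28.3, 29.7 and 48.3 CPM with Icam1 at 5.44, 5.26 and 4.75 CPM. The part of leukocyte RNA in the Icam1 values was not tested.

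**Figure D4:**
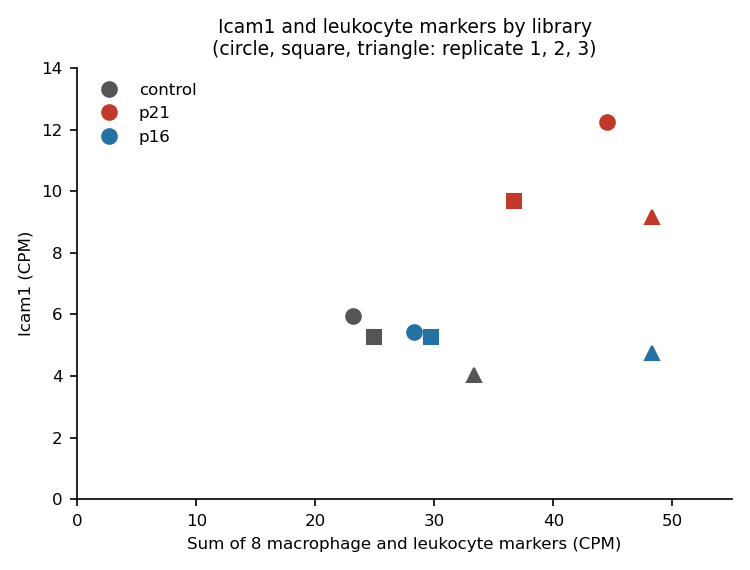
Icam1 in CPM against the summed CPM of 8 macrophage and leukocyte markers, 1 point per library, with both axes linear from 0. The 3 p21 libraries lie at 9.17 CPM of Icam1 or higher and at marker sums above all controls. The p16 libraries span marker sums of 28.3 to 48.3 CPM with Icam1 at 4.75 to 5.44 CPM.

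Genes of hyaluronan turnover, whose product CD44 binds, went both ways with p21. Of 16 listed, 15 were tested, and 4 rose and 5 fell with p21, where 39.9% of all genes were called. With p16, 2 rose and 1 fell, where 11.4% were called. The median was 0.055 with p21, and the 6 that did not pass included Hyal2 (0.06 ± 0.046) and Cemip2 (0.05 ± 0.041). Cemip, which encodes a hyaluronan-degrading factor, rose from 78.6 ± 8.21 to 218 ± 7.42 CPM with p21 (1.47 ± 0.084, edgeR adjusted p = 1.16e-07) and to 129 ± 15.8 CPM with p16 (0.71 ± 0.083, 4.59e-04). Vcan, the proteoglycan versican that is laid on hyaluronan, fell from 389 ± 37.6 to 236 ± 21.2 CPM with p21 (-0.72 ± 0.076, edgeR adjusted p = 1.46e-05). With p16 Vcan was at 324 ± 23.4 CPM (-0.26 ± 0.076, edgeR adjusted p = 0.0423). Leaving out control replicate 1 or 3, p21 replicate 1, or p16 replicate 1 or 2 ended the p16 call of Vcan (edgeR adjusted p = 0.0532 to 0.167). Hmmr, a hyaluronan-binding protein that also serves the mitotic spindle, fell from 76.4 ± 4.12 to 41.4 ± 1.74 CPM with p21 (-0.89 ± 0.063, edgeR adjusted p = 6.07e-07). With p16 it was at 68.9 ± 5.51 CPM (-0.15 ± 0.062, edgeR adjusted p = 0.149, and 0.0201 with the replicate block). All 3 differed between p21 and p16 (Cemip 0.76 ± 0.082, Vcan -0.45 ± 0.076 and Hmmr -0.74 ± 0.063, with edgeR adjusted p of 9.60e-05, 0.00209 and 1.61e-05).

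Genes that tie receptor tails to the cytoskeleton, or cut receptors from the surface, gave 3 rises and 4 falls with p21 among 13 tested, where 39.9% of all genes were called. With p16 they gave no rise and 1 fall, where 11.4% were called. Ezr (ezrin) and Rdx (radixin), which link ICAM1 and CD44 to actin, fell with p21 (-0.47 ± 0.074 and -0.31 ± 0.049, edgeR adjusted p = 3.16e-04 and 3.25e-04). Ezr also fell with p16 (-0.33 ± 0.073, edgeR adjusted p = 0.0131), a call lost without control replicate 2 (0.0620) or p16 replicate 3 (0.0522). Rdx did not pass with p16 (-0.16 ± 0.048, edgeR adjusted p = 0.0587), but passed with the replicate block (0.00758), by DESeq2 (0.0255) and with library totals (0.0238). Actn1, the actin crosslinker alpha-actinin 1, rose with p21 from 1818 ± 44.4 to 2071 ± 74.7 CPM (0.19 ± 0.034, edgeR adjusted p = 8.70e-04). With p16 it was at 1947 ± 17.3 CPM (0.10 ± 0.034, edgeR adjusted p = 0.0826, but 0.0398 by DESeq2 and 0.00689 with the replicate block). Msn (moesin), the third member of the ezrin family, was at 1782 ± 44.8 CPM in the controls and 1852 ± 38.2 CPM with p21 (0.05 ± 0.034, edgeR adjusted p = 0.228).

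The list of NF-kB and interferon-gamma genes, the pathways best known to raise ICAM1, was mixed with p21. It holds activators and inhibitors alike, so its counts and medians do not measure the activity of either pathway. Of 22 listed, 21 were tested, and 5 rose and 7 fell with p21, where 19.8% of all genes were called higher and 20.1% lower. With p16, 3 rose and 3 fell, where 5.8% and 5.56% were called. The medians were -0.12 and -0.05. Tnfaip3, which encodes the NF-kB inhibitor A20, rose from 29.9 ± 1.45 to 44.1 ± 1.57 CPM with p21 (0.56 ± 0.048, edgeR adjusted p = 2.59e-06) and to 34.2 ± 0.986 CPM with p16 (0.20 ± 0.048, 0.0224). Leaving out control replicate 1 or 3, or p16 replicate 2 or 3, ended the p16 call of Tnfaip3 (edgeR adjusted p = 0.0754 to 0.0936). Ikbkg, the regulatory subunit of the IkB kinase, rose with p21 from 45.2 ± 0.467 to 63.1 ± 1.43 CPM (0.48 ± 0.042, edgeR adjusted p = 3.22e-06) and with p16 to 53.3 CPM (0.24 ± 0.042, 0.00431). Bcl3, a nuclear cofactor of the NF-kB subunits p50 and p52, fell with p21 from 8.51 ± 0.343 to 5.48 ± 0.219 CPM (-0.64 ± 0.084, edgeR adjusted p = 8.35e-05) and with p16 to 6.35 ± 0.264 CPM (-0.42 ± 0.083, 0.00715). Others that fell with p21 included Nfkb1, Nfkb2, Nfkbia, Irf1 and the interleukin 1 receptor gene Il1r1. Tnf, the cytokine gene itself, was too low to be tested.

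The receptors also differed in how they varied between the replicate numbers, which pair the libraries across groups. Replicate 3 was the highest library in all 3 groups for Vcam1, Mcam, Ncam1 and Jam3, 4 of the 9 receptors, where 9.77% of tested genes had this pattern. It was the lowest in all 3 groups for Icam1, where 9.29% of tested genes had that pattern. Replicate 3 was also the library with the most Xist in each group, and the part of this difference in the receptor values was not tested. Against the mean of replicates 1 and 2, replicate 3 held 0.716, 0.836 and 0.887 times as much Icam1 in controls, p21 and p16. For Vcam1 these ratios were 1.07, 1.20 and 1.11, and for Mcam 1.06, 1.12 and 1.20. With replicates 1 and 2 alone Icam1 differed by 0.97 between p21 and the controls on the log2 scale, and 5 of the 8 other receptors passed with p21 (all of the 6 but Cd44, edgeR adjusted p = 0.0998).

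The genes most like Icam1 across the 9 libraries were Nebl, Pgam2, Tmem151a, Wbscr27 and U90926. Likeness was the root mean square difference between log2 CPM values centred on the mean of each gene, over 11278 genes with a mean log2 CPM of at least 1. It was 0.15 for Nebl, an actin-binding gene of the nebulin family, and 0.16 for Pgam2, the muscle form of phosphoglycerate mutase. It was 0.17 for Tmem151a, 0.20 for Wbscr27 and 0.22 for U90926. Nebl stood at 1.83 ± 0.350 CPM in the controls, 3.70 ± 0.676 CPM with p21 and 2.02 ± 0.388 CPM with p16. Tmem151a stood at 3.92 ± 0.572, 8.88 ± 1.37 and 4.94 ± 0.322 CPM in the same order. U90926, the most abundant of the 5, went from 9.09 ± 0.537 CPM in the controls to 16.1 ± 0.793 CPM with p21 and 10.8 ± 1.83 CPM with p16. Since each was chosen for its likeness to Icam1, these levels are a description.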

How the data were processed

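RNA-seq libraries of MEFs were deposited as 1 table of raw read counts per gene symbol. The submitters' processing notes name TopHat2 2.0.14 and Bowtie2 2.2.6 for alignment, mm10 as the build, and featureCounts 1.4.6 (Subread) for counting. The annotation and the strand setting are not given in the sources used here. The deposited counts carry no further normalization. Of 24062 symbols, 22750 matched GENCODE M21, and a few listed genes appear under an older symbol.

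The fit used edgeR 4.0.16 in R 4.3.3: filterByExpr by group (minimum count 10, minimum total 15), TMM scaling, 1 quasi-likelihood fit of the 9 libraries by group with 6 residual degrees of freedom, two-sided F tests, and Benjamini-Hochberg adjustment over the 14223 genes tested with a threshold of 0.05. Each SE was taken as |log2 fold change| over √F. CPM values use TMM-scaled totals of the tested genes, and log2 CPM a prior count of 2. The fit was tested on simulated data. The biological coefficient of variation was 7.30%, and few reads limit the precision of low genes. Alternatives were DESeq2 1.42.0 size factors (RLE) and Wald test, library totals, no filter, voom of limma 3.58.1, a replicate block, each library left out, and replicates 1 and 2 alone.

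The labels number the replicates without explaining the numbers. After removal of group means, the 9 pairs of libraries with the same number correlated at 0.126 to 0.361. The 18 other pairs correlated at -0.246 to 0.106, so the numbers pair the libraries. The main fit leaves this pairing out, because the labels do not explain the numbers. The replicate block uses it and called more receptors and genes (below), so a gene that did not pass in the main fit can pass with the block.

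The receptors and lists were chosen with earlier results of these data known. Named genes are the 9 receptors, the 3 genes of each of 5 lists with the smallest adjusted p in p21 against the empty vector, the 5 genes most like Icam1, and the delivered genes; others were named after their values were seen. A further listed gene is counted but not reported by name here. Tables were joined with pandas 2.3.3 (Python 3.11.15), and plots drawn with matplotlib 3.10.9.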

Additional observations from a re-analysis of the deposited data

How the results depend on the processing

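The log2 difference of Icam1 between p21 and the empty vector ranged from 0.89 to 1.16 over 16 alternatives, and that between p21 and p16 from 0.87 to 1.09. F11r stayed past the threshold with p21 and with p16 in all 16. With p21, Alcam and Thy1 did so as well. Library totals alone left 3 receptors called with p21 and 1 with p16, against 6 and 2. With the replicate number as a block, 7, 4 and 2 receptors were called with p21, with p16 and in p21 against p16, and 6856, 3044 and 3214 genes against 5681, 1616 and 1858. In p21 against p16 no filter called 1 receptor, DESeq2 2, and replicates 1 and 2 alone 1, against 0. Leaving out 1 library gave 3 to 6 receptors with p21 (3 without control replicate 2), 1 to 2 with p16 and 0 to 1 in p21 against p16. It gave 4617 to 5659 genes with p21, 759 to 1894 with p16 and 1074 to 1810 in p21 against p16. Differences near 0 changed sign. With library totals those of p16 became -0.0018 for Vcam1, -0.0027 for Mcam and -0.027 for Cd44. With replicates 1 and 2 alone they became -0.034 for Mcam with p16 and 0.0100 for Ncam1 in p21 against p16. Leaving out 1 library ranged from -0.10 to 0.055 for Vcam1 with p21, -0.023 to 0.064 with p16 and -0.13 to 0.026 in p21 against p16. The range was -0.064 to 0.073 for Mcam with p16, -0.026 to 0.030 for Cd44 with p16 and -0.032 to 0.034 for Ncam1 in p21 against p16. None of these sign changes passed the threshold, and the cause was not tested. Few reads limit the precision of low genes such as Itgal, Cd6, Icam5 and Ptprc.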
